A study of Mus musculus with 18 samples.

Results

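The genes described here are 33 genes of the hypoxia response and of glycolysis, followed in all 18 lung lesions of the deposited count table. They are a set of gene symbols that uses no measured value as a criterion, although the set was drawn up with earlier results of these data known. All 33 were found among the 49585 gene identifiers and all 33 passed the filter on low counts, which left 16917 genes to test. They fall into 20 glycolysis genes (15 enzymes, 2 transporters and 3 regulators) and 13 other genes of the hypoxia response.

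Cells sense oxygen through prolyl hydroxylases, enzymes that use oxygen to mark the protein HIF-1α, the product of Hif1a, for destruction through the VHL protein. When oxygen is scarce HIF-1α escapes this mark, pairs with ARNT and binds short DNA elements beside its target genes. Those targets include most glycolytic enzymes, the glucose and lactate transporters, factors that remove mitochondria, collagen-modifying enzymes and the hydroxylases themselves. Tumours are known for drawing on this programme and for running glycolysis even where oxygen is present. HIF-1α is controlled mainly as a protein, so RNA levels of Hif1a do not report its activity.

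AT3 cells, a mouse mammary carcinoma line, carried GFP and mCherry, were placed in the mammary fat pad, and reached the lungs by spontaneous spread. Hosts lacked Il2rg together with Rag2, as their strain entry gives it, or Rag1, as the growth protocol gives it, so all of them lacked T, B and NK cells of their own. On day 11, mice received by vein either PBS (the group labelled Ctrl) or 60000 mouse NK cells activated in culture (the group labelled NK transferred); age at injection and the time to harvest are not stated in the labels. Fluorescent lesions were cut from frozen lung sections by laser, and 2 ng of total RNA from each was made into a library with a kit designed for single cells. There were 7 lesions of 2 mice with NK cells (NK1 with 3 lesions, NK2 with 4) and 11 lesions of 3 control mice (KO1 with 5, KO2 with 4, KO3 with 2). Lesions are named by mouse and number, as in NK1-3. Lesions of a mouse share a host, so groups were compared over mice, on counts summed within each mouse. Levels are given as CPM, the counts of a gene relative to the size of its library after TMM scaling.

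Total counts ran from 2964242 (NK1-3) to 11798897 (NK2-4) per lesion. Between 12.1% and 68.7% of them came from mt-Rnr2, a ribosomal RNA of the mitochondrion, whose share exceeded 40% in 6 lesions, which were NK1-1, NK1-2, NK1-3, KO1-2, KO1-5 and KO3-2. The 33 members made up 0.130% (NK1-3) to 0.746% (NK2-4) of the counts outside the mitochondrial genome. Markers of other cell types differed between lesions. Summed over 11 cardiac muscle genes, NK1-1 had 293 CPM, NK1-3 had 82.0 CPM and the other lesions 1.26 to 42.3 CPM. Over 3 adipocyte genes NK1-1 had 664 CPM and every other lesion at most 6.63 CPM. Over 10 fibroblast genes NK1-1 had 8902 CPM, NK1-2 had 3419 CPM and the others 189 to 1571 CPM, while 9 airway epithelium genes reached 24848 CPM in NK1-3 and 15972 CPM in KO3-1. The 10 genes listed for mammary epithelium, the labelled origin of the tumour cells, summed to 93.6 to 1036 CPM over lesions. Their highest sums were 1036 (NK1-3), 398 (KO1-2) and 350 CPM (KO3-1 and KO1-3). The airway sums there were 24848, 2805, 15972 and 4372 CPM. NK1-1, with an airway sum of 3640 CPM, had 189 CPM. Which cells gave these sums was not tested, so they do not measure tumour content. The 8 tested NK cell genes summed to 46.9 and 21.5 CPM in the mice with NK cells and to 1.78 to 4.82 CPM in the control mice. By lesion the groups overlapped. NK1-1, NK1-2 and NK1-3 had 73.8, 8.92 and 2.16 CPM, the lesions of NK2 8.98 to 33.4 CPM, and control lesions 0.457 to 9.91 CPM. In tissue pieces of this kind, fewer cells of a type and less RNA per cell cannot be told apart.

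The element that HIF binds has a core of 5 bases, ACGTG or GCGTG. It was searched on both strands in the 250 bases before each RefSeq start site (assembly GRCm38.p6), so that the palindrome CACGTG counts on each strand and overlapping matches count separately. Of the 33 members, 31 had an entry, with 45 start sites. No entry was found for Ndrg1 or Bnip3l. At least 1 core stood before at least 1 start site of 28 members (90.3%), namely 17 of 20 glycolysis genes and 11 of 11 other HIF genes, against 6796 of the 11611 tested genes with an entry (58.5%). Members can have more start sites than other genes. Counted by start site the shares were 77.8% of 45 for the members and 38.6% of 32851 for all genes with an entry, tested or not. By gene, this wider background had a core for 41.5% of 27025 genes, so the 38.6% is not to be set beside the 58.5% of tested genes. A share by start site was not computed for the tested genes alone. The members' windows were also richer in G and C, with a median of 62.8% against 52.4% over the windows of all genes, tested or not. Tpi1, Gpi1 and Eno2 had no core in their windows. The 5 windows shown were picked among those with cores, and so are not typical of the members: Bnip3 and Hif1a for their fold changes below, Ldha and Pgk1 as enzymes of high level, and P4ha1 as a collagen-modifying enzyme. Capitals mark the cores, and each is printed from 5′ to 3′ on the strand of the gene, ending at the base before the start site. They are Bnip3 (chr7:138909507-138909756, minus strand, 5 cores, its last 13 bases inside an annotated exon), Hif1a (chr12:73907617-73907866, plus strand, 3 cores), Ldha (chr7:46845554-46845803, plus strand, 5 cores), Pgk1 (chrX:106186850-106187099, plus strand, 2 cores) and P4ha1 (chr10:59323046-59323295, plus strand, 3 cores). A match is a description of these letters and not a measured binding site.
Bnip3: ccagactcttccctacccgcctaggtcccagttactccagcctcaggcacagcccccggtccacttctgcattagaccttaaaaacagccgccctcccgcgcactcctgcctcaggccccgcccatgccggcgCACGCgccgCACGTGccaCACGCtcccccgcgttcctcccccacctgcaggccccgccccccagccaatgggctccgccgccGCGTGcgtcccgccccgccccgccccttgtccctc
Hif1a: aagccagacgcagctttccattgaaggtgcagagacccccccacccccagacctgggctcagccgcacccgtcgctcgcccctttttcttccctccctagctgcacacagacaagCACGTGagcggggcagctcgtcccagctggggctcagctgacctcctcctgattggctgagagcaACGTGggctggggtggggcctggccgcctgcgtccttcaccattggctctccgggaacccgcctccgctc
Ldha: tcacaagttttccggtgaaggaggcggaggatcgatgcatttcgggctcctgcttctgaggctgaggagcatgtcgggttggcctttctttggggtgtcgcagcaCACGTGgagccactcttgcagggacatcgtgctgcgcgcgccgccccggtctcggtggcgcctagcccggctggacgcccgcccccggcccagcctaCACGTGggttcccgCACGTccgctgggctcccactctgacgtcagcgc
Pgk1: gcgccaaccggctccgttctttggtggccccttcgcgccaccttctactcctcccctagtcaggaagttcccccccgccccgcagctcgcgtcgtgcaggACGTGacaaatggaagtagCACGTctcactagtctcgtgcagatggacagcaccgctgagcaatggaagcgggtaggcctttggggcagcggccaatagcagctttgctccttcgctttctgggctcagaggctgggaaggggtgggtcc
P4ha1: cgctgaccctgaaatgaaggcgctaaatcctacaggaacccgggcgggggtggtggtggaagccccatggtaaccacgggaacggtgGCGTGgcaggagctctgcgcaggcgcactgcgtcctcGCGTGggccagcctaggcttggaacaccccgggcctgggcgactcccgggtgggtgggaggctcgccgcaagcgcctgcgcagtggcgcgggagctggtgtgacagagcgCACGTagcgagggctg

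The first question was whether the 33 genes differed between lesions of mice with and without NK cells. No member passed edgeR's quasi-likelihood test with Benjamini-Hochberg adjustment (adjusted p = 0.9998 for each of the 33), and neither did any of the 16917 genes tested (0% called). Without adjustment, edgeR's p fell under 0.05 for 426 genes, 262 higher (1.55%) and 164 lower (0.969%) with NK cells. Among the members 3 were higher in that sense (Ndrg1, Bnip3 and Hif1a, all outside glycolysis) and 0 were lower. Both mice with NK cells lay above every control mouse for 3 members (Ndrg1, Hif1a and Eno2), against 7.94% of all genes, and below every control mouse for 0 members, against 6.86% of all genes. DESeq2 called 39 genes, 0 of them members. Leaving out the filter on low counts let edgeR call 224 genes, of which 1 was a member, Bnip3 (adjusted p = 0.0314).

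The log2 fold changes of the 20 glycolysis genes lay around 0, with 9 above and 11 below and a median of -0.05. The 15 enzymes alone had a median of -0.04, and all tested genes -0.03, with 48.3% of them above 0. The 13 other HIF genes had 8 above 0 and 5 below, and a median of 0.32. That median rested on lesion NK1-1, since without it the value was -0.12, and without mouse NK1 -0.05. With 2 mice against 3, the smallest one-sided p of an exact permutation test over mice is 0.1, and the common dispersion of the fit was a coefficient of variation of 64.9%.

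**Figure D1:**
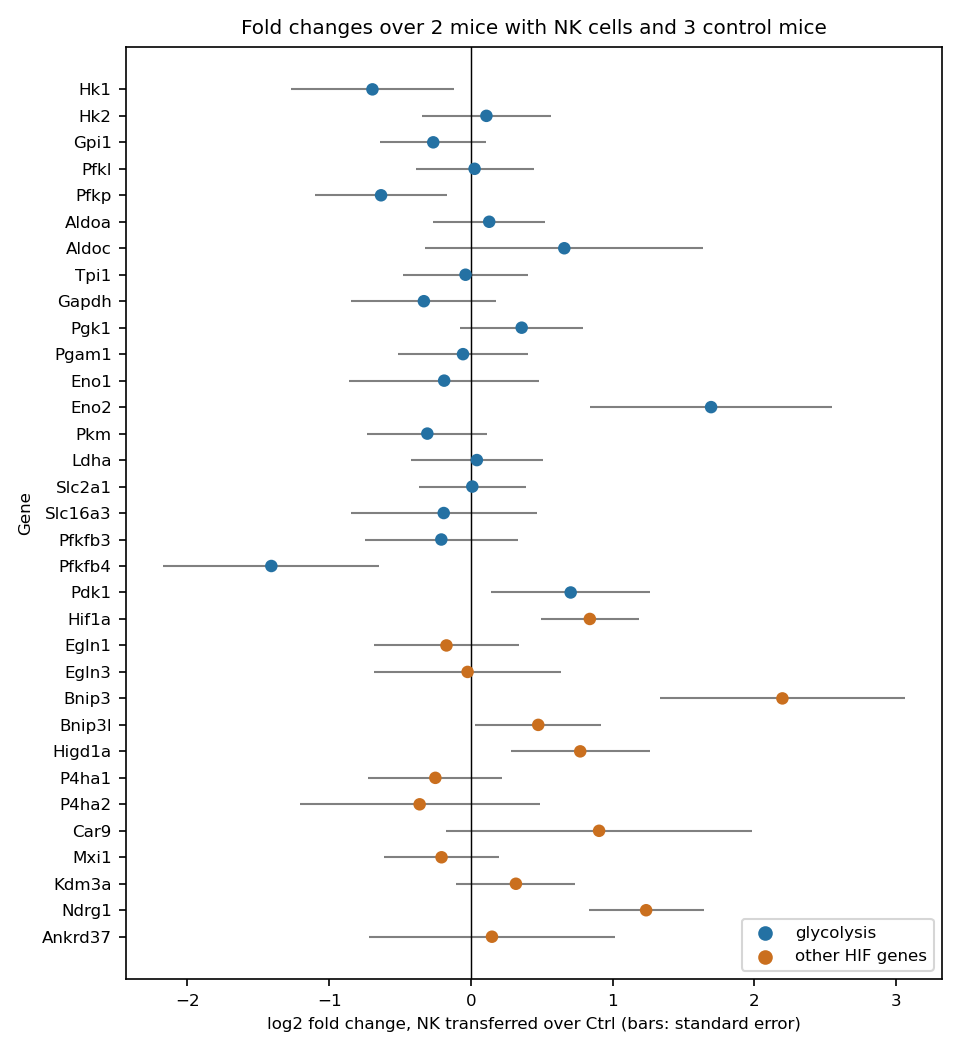
Log2 fold change of each of the 33 members, NK transferred over Ctrl, from edgeR on counts summed over each of 5 mice, with bars of 1 standard error. The glycolysis genes (blue) spread to both sides of 0 with a median of -0.05, and Ndrg1, Hif1a and Bnip3 among the other HIF genes (orange) stand farthest above 0 in units of their standard error.

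Ndrg1, a cytoplasmic stress-response protein and widely used hypoxia marker (chromosome 15, 66929318 to 66969640, minus strand), was the member that most nearly separated the groups. Its level was 68.7, 43.8 and 0 CPM in NK1-1, NK1-2 and NK1-3, and 48.7, 52.4, 41.6 and 84.2 CPM in the lesions of NK2. In the 11 control lesions it ranged from 6.60 (KO3-2) through a median of 22.8 to 39.7 CPM (KO1-1). So 6 of 7 lesions with NK cells lay above every control lesion, and the exception, NK1-3, lay below all of them. The 0 of NK1-3 came from the shallowest library, where 0 counts allow up to 2.16 CPM by counting error alone. This separation of 6 of 7 lesions was looked for after the values were seen, and 20 of all tested genes (0.118%) showed it, Ndrg1 alone among the members.

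Over mice, Ndrg1 averaged 56.6 ± 6.84 CPM (SD, n = 2) in the NK transferred group and 24.0 ± 7.12 CPM (SD, n = 3) in the Ctrl group. The log2 fold change was 1.24 ± 0.41 (SE), with an unadjusted p of 0.0160 in edgeR and a one-sided exact permutation p of 0.1, the smallest this design allows. It stayed between 0.92 (without NK1-1) and 1.44 (without KO1) when each mouse or lesion was left out, and was 1.22 without the 6 lesions over 40% mt-Rnr2, where NK2 is the only mouse with NK cells. When every lesion of a mouse was given the same weight so that NK1-3 counted as much as the deeper lesions, it was 0.16. The fibroblast markers also stood higher in both mice with NK cells, with sums of 6253 and 1309 CPM in NK1 and NK2 and 817, 662 and 347 CPM in KO1, KO2 and KO3, and their part in the Ndrg1 levels was not tested. No other gene with counts matched Ndrg1 at 90% identity over 200 bases, and the 2 genes that overlap it on the other strand had 0 and 6 counts against its 6436.

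Hif1a, the oxygen-regulated subunit of HIF-1 (chromosome 12, 73901375 to 73947530, plus strand), was highest in NK1-1 at 177 CPM. NK1-2 and NK1-3 had 54.0 and 11.51 CPM, and the lesions of NK2 had 91.3, 71.6, 131 and 151 CPM. Control lesions ran from 29.5 (KO3-2) through a median of 68.7 to 93.3 CPM (KO1-1). The lesions overlapped, with 3 of 7 above every control lesion and NK1-3 below them all, but the mouse totals did not, since both mice with NK cells, at 121 and 119 CPM, stood above KO1, KO2 and KO3 at 78.3, 68.3 and 55.1 CPM.

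The log2 fold change of Hif1a was 0.84 ± 0.35 (SE), with an unadjusted p of 0.0416 in edgeR. It was positive in all 23 fits without a mouse or lesion, but 0.25 without NK1-1, against 0.83 without the whole of mouse NK1 and at most 1.02. With equal weight for every lesion of a mouse, the Hif1a value was 0.33. NK1-1, the lesion with the most Hif1a, was also that with the highest fibroblast, adipocyte and cardiac muscle sums, and their part in this level was not tested. In the lesions of NK2 the cardiac muscle sum was 2.83 to 6.06 CPM and the adipocyte sum 1.74 to 6.63 CPM, while the fibroblast sum, at 1119 to 1571 CPM, lay above that of every control lesion (189 to 932 CPM).

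**Figure D2:**
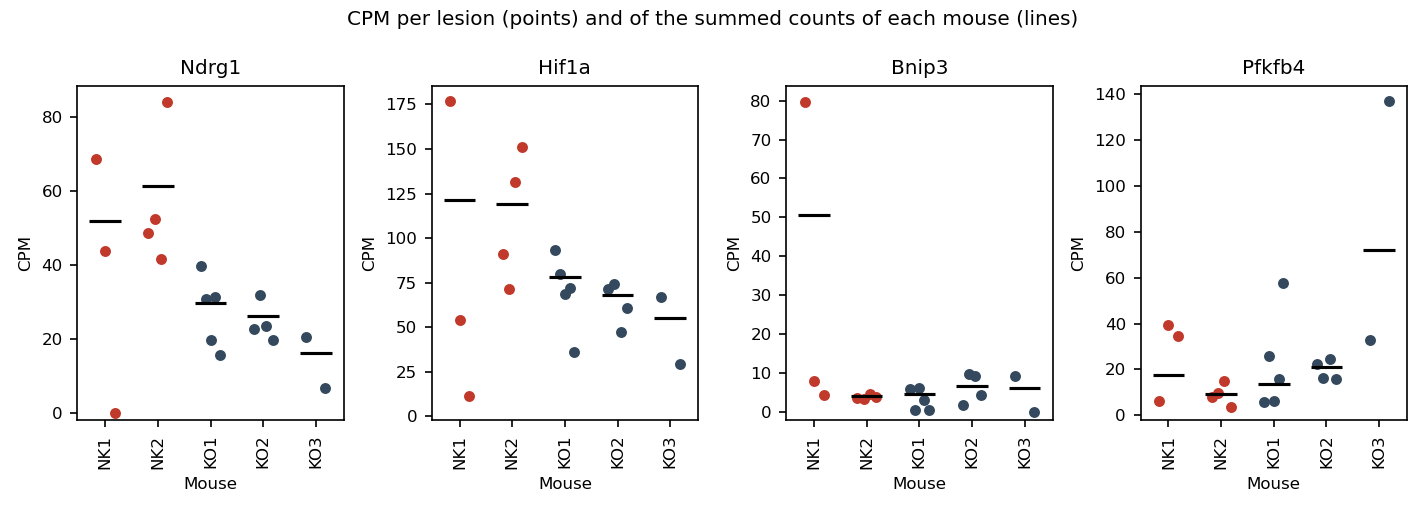
CPM of Ndrg1, Hif1a, Bnip3 and Pfkfb4 in each lesion (points; red, mice with NK cells; grey, control mice) and of the summed counts of each mouse (lines), on linear axes. Ndrg1 and Hif1a have both lines of the mice with NK cells above the 3 control lines, the Bnip3 line of NK1 rests on a lesion at 79.7 CPM, and the Pfkfb4 line of KO3 on a lesion at 137 CPM.

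The oxygen sensors showed no such order of the mice. Egln1, the prolyl hydroxylase PHD2 that sets HIF-1α levels in most cells, averaged 79.1 ± 2.88 CPM over the mice with NK cells (n = 2) and 89.1 ± 44.7 CPM over control mice (n = 3). Its log2 fold change was -0.17 ± 0.51, and the highest lesion was the control KO2-1 at 242 CPM. Egln3, the hydroxylase PHD3, itself a strong HIF target in many cells, had 7.65 ± 2.74 and 7.77 ± 4.86 CPM, a log2 fold change of -0.02 ± 0.66. Egln3 was at 0 CPM in NK1-3, where 0 counts allow up to 2.16 CPM by counting error alone. In KO3-2 it was at 0.236 CPM, from 1 count. The highest lesion was KO1-1 at 16.8 CPM, so the range of Egln3 within a group was wider than its difference between groups.

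Bnip3, a mitochondrial outer-membrane protein that promotes removal of mitochondria (chromosome 7, 138890836 to 138909519, minus strand), had the largest positive fold change of the members and owed it to 1 lesion. NK1-1 had 79.7 CPM, or 506 counts, while NK1-2 and NK1-3 had 8.11 and 4.32 CPM and the lesions of NK2 3.27 to 4.58 CPM. Control lesions ran from 0 (KO3-2) through a median of 4.41 to 9.76 CPM (KO2-2). Thus NK1-1 stood at 18.3 times the median of all lesions and held 66.7% of the Bnip3 counts of the group, and the other 6 lesions with NK cells lay within the control range. The log2 fold change was 2.20 ± 0.86 (unadjusted p = 0.0349 in edgeR), but -0.12 without NK1-1 and -0.54 without mouse NK1. Without mouse NK2 it was 3.09, from the lesions of NK1 alone.

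The other mitochondrial genes shared this lesion. Bnip3l, also called Nix, the mitophagy receptor that clears mitochondria from maturing red cells, was at 324 CPM in NK1-1 and at 48.9 to 106 CPM in the other lesions with NK cells. Controls had 71.7 to 201 CPM. Its log2 fold change of 0.48 ± 0.44 became -0.54 without NK1-1. Higd1a, a small protein of the respiratory chain membrane, was at 48.9 CPM in NK1-1, 7.71 to 19.9 CPM in the other lesions with NK cells and 5.94 to 28.1 CPM in controls, and its 0.77 ± 0.49 became -0.04 without that lesion. In all, NK1-1 was the highest of 18 lesions for 6 members and lay above the median for 12 of the 13 other HIF genes, or 92.3%, and for 8 of the 20 glycolysis genes, against 52.1% of all genes. The 6 members are 18.2% of the 33, and 12.8% of all genes were highest in that lesion. It was also the lesion with the highest sums of cardiac muscle, adipocyte and fibroblast markers. Their part in the Bnip3, Bnip3l and Higd1a levels was not tested.

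**Figure D3:**
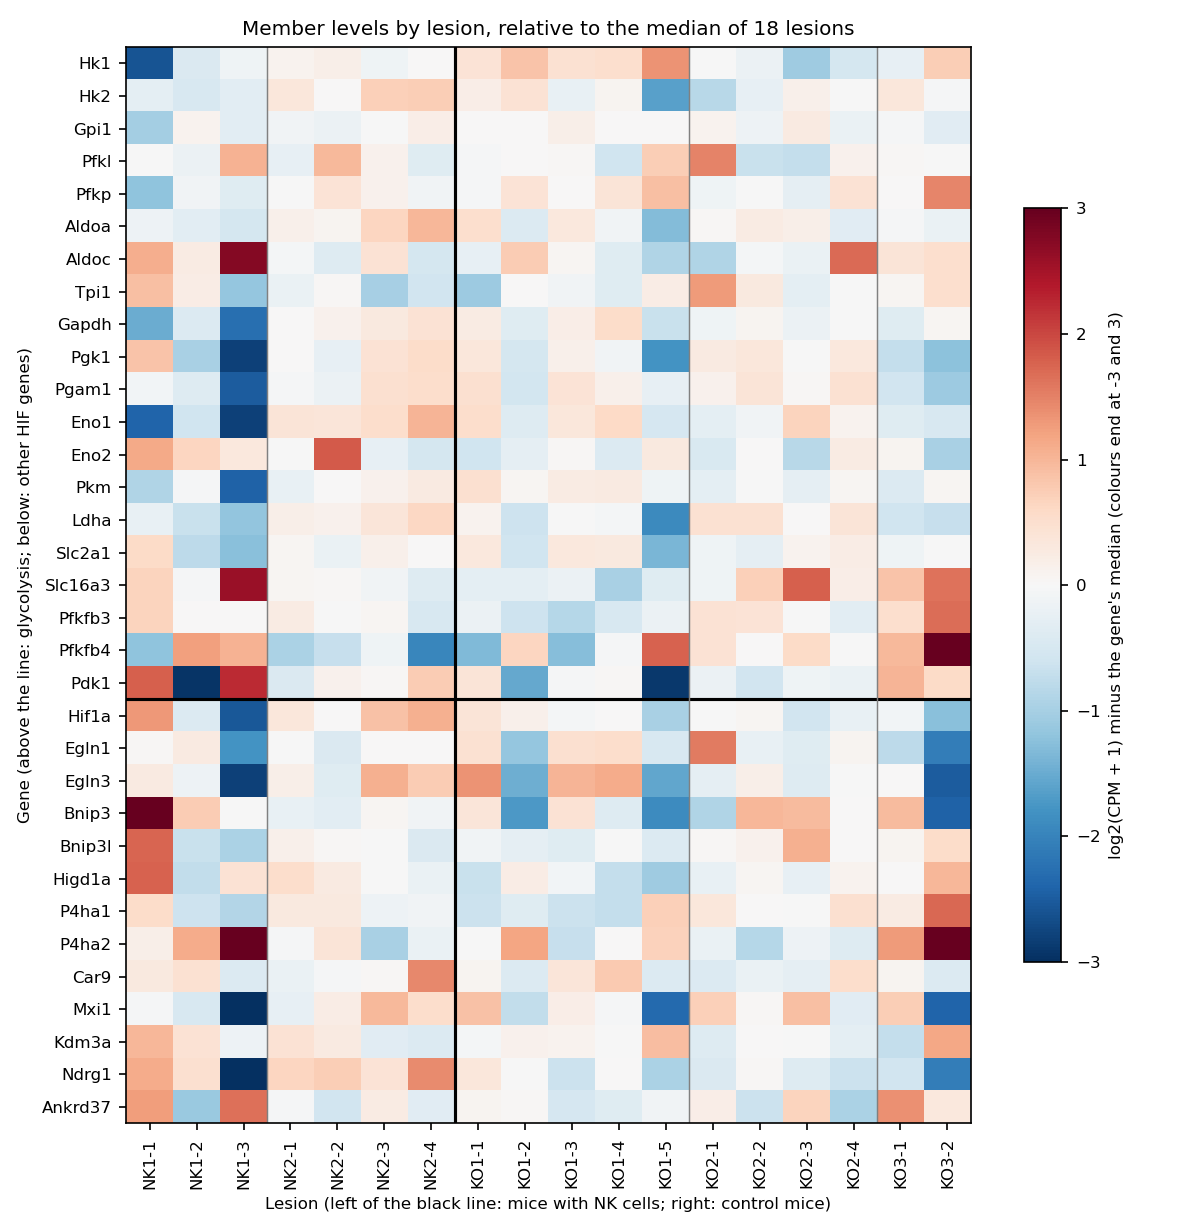
Each cell is log2(CPM + 1) of a member in a lesion minus the median of that gene over 18 lesions, with colours ending at -3 and 3; genes above the horizontal line belong to glycolysis, lesions left of the vertical line to mice with NK cells, and thin lines part the mice. NK1-1 is red for Bnip3, Bnip3l, Higd1a and Hif1a and blue for Hk1 and Eno1, and NK1-3 is blue for most abundant enzymes.

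The 15 enzymes covered a wide range of RNA levels. Compared per kilobase of exon, the median over 18 lesions was highest for Tpi1 at 157 CPM per kilobase, the isomerase that interconverts the triose phosphates. Ldha, the lactate dehydrogenase subunit that HIF is known to raise, followed at 145, then Gapdh at 140, Pgk1 at 124 and Pgam1 at 123, all enzymes of the lower pathway. The ranges of these 5 over lesions overlapped, so their order is not separable. Pkm, the pyruvate kinase gene, had 47.9 CPM per kilobase, the enolase Eno1 35.4, the aldolase Aldoa 24.7 and the isomerase Gpi1 12.9. The entry and commitment steps were lower, with 2.73 for the hexokinase Hk2, 2.15 for Hk1, 2.00 for the phosphofructokinase Pfkl and 1.89 for Pfkp. Aldoc and Eno2, the isozymes known from brain, stood at 0.27 and 0.20 CPM per kilobase.

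**Figure D4:**
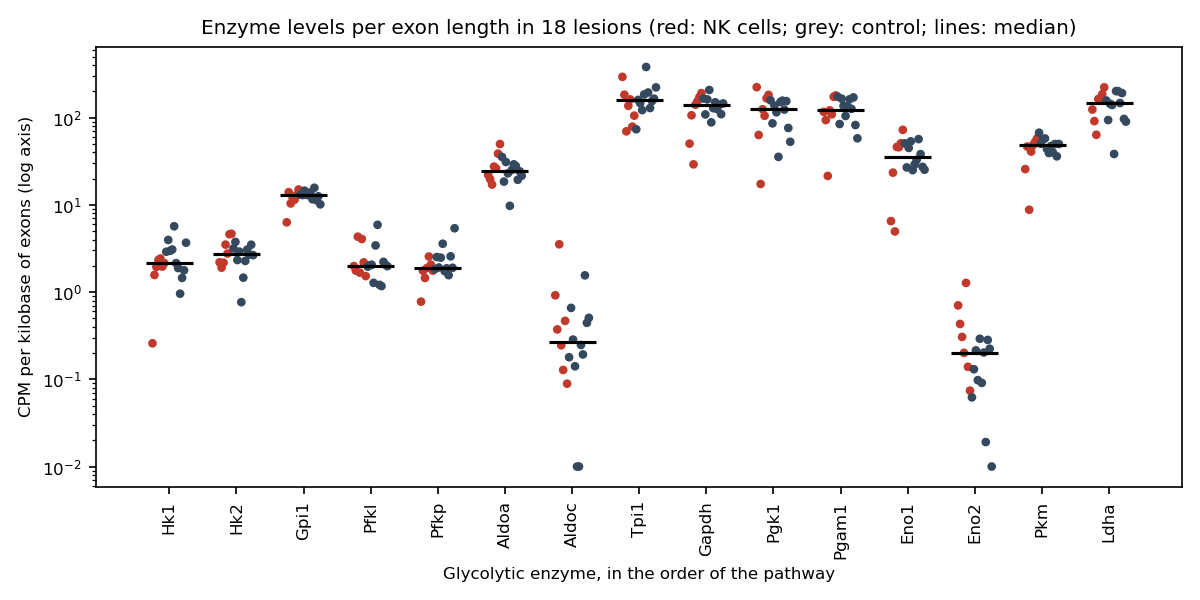
CPM per kilobase of exons (log axis) of the 15 glycolytic enzymes in the order of the pathway, with a point per lesion (red, NK transferred; grey, Ctrl) and a line at the median of 18 lesions; values of 0 are drawn at the bottom of the range. The enzymes from Tpi1 to Pgam1 and Ldha have medians of 123 to 157 CPM per kilobase, while Aldoc and Eno2 have 0.27 and 0.20.

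Within pairs of isozymes the same gene usually led. Aldoa was above Aldoc and Eno1 above Eno2 per kilobase in 18 of 18 lesions, as were Bnip3l above Bnip3, Egln1 above Egln3, and P4ha1 above P4ha2. Pfkl and Pfkp each led in 9 lesions. Per kilobase, Hk2, the inducible hexokinase, was above Hk1, the broadly expressed form, in 7 of 7 lesions with NK cells. The same held in 5 of 11 control lesions. This lead depended on the merged exon lengths, 8532 bases for Hk1 and 5969 for Hk2. In plain CPM, Hk1 was above Hk2 in NK1-2 (13.39 against 11.36), NK1-3 (16.55 against 12.95) and NK2-2 (20.67 against 16.5). Hk2 was above Hk1 in the other lesions with NK cells. Per mouse, Hk2 made up 72.5% and 63.9% of the pair in NK1 and NK2, and 45.8%, 59.2% and 56.5% in KO1, KO2 and KO3, so the groups did not overlap. This was found after the values were seen, and its one-sided exact permutation p over mice is 0.1, the smallest the design allows. Hk2 and Hk1 were not the only such pair. Eno2 made up 5.33% and 0.744% of its pair with Eno1 in NK1 and NK2, and 0.311% to 0.539% in the controls. Pfkfb4 made up 56.4% and 46.9% of its pair with Pfkfb3, and 63.2% to 76.5% in the controls. The pairs of Pfkl, Aldoa, Bnip3l, Egln1 and P4ha1 overlapped. No share over other gene pairs was computed. Hk1 had 13.3 ± 9.36 against 21.6 ± 6.89 CPM (log2 fold change -0.69 ± 0.57) and Hk2 18.4 ± 8.73 against 17.2 ± 2.30 CPM (0.11 ± 0.45). Neither separated the groups alone, and Hk1 in NK1-1, at 2.21 CPM, was its lowest value of all lesions.

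Between the groups, none of the abundant enzymes differed by more than its spread over mice. Gapdh, the glyceraldehyde phosphate dehydrogenase, averaged 483 ± 338 CPM in mice with NK cells (SD, n = 2) against 608 ± 93.1 CPM in control mice (n = 3), with NK1 at 244 and NK2 at 722 CPM. Ldha had 495 ± 211 and 481 ± 168 CPM, a log2 fold change of 0.04 ± 0.47. Pgk1, the first ATP-making enzyme of the pathway, had 343 ± 3.79 and 268 ± 100 CPM, with 0.36 ± 0.43. Its mouse values with NK cells were alike while its lesions in NK1 ran from 38.9 to 501 CPM. Eno1 had 182 ± 181 CPM against 208 ± 55.4 CPM, with NK1 at 54.2, NK2 at 310 and the controls between at 147 to 255 CPM.

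For several of the abundant enzymes NK1 lay at the low end. Gapdh, Eno1, Pkm, Gpi1 and Aldoa were all lower in NK1 than in any control mouse, and Gapdh, Eno1 and Aldoa higher in NK2 than in any control mouse. Tpi1 ran the other way, with 630 CPM in NK1, 348 CPM in NK2 and 354 to 627 CPM in the controls. Ldha, Pgk1 and Pgam1 lay within the control range in both mice with NK cells. Fits without NK2 gave log2 fold changes of -1.94 for Eno1 and -1.32 for Gapdh, and fits without NK1 gave 0.58 and 0.25. Such fits assume that the lone mouse varies like the others. Of the remaining enzymes, Tpi1 (-0.04 ± 0.44), Pgam1 (-0.06 ± 0.46), Pkm (-0.31 ± 0.42), Gpi1 (-0.27 ± 0.37), Pfkl (0.03 ± 0.42), Pfkp (-0.63 ± 0.46) and Aldoa (0.13 ± 0.40) had small fold changes for their standard errors, the largest in proportion being that of Pfkp.

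Eno2, the neuronal enolase, was the only glycolysis gene with both mice with NK cells (2.66 and 2.03 CPM) above the 3 control mice (0.696 to 0.768 CPM). The lesions with NK cells had 3.31, 2.03 and 1.44 CPM in NK1 and 0.946, 5.99, 0.654 and 0.349 CPM in NK2. Control lesions had 0 to 1.37 CPM with a median of 0.614 CPM, so 4 of 7 lesions with NK cells exceeded all of them and 3 did not. The log2 fold change was 1.70 ± 0.86 (unadjusted p = 0.0835 in edgeR) on 142 counts against 68, and NK2-2 held 60.6% of the 142. Aldoc, at 81 and 126 counts, was similarly sparse, and its 0.66 ± 0.98 turned to -0.83 without NK1.

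The 2 transporters did not separate the groups. Slc2a1, the glucose carrier GLUT1 (chromosome 4), averaged 22.01 ± 0.50 CPM (SD) over the 2 mice with NK cells and 21.8 ± 2.27 CPM over the 3 controls, the smallest fold change of all members in size (log2 0.01 ± 0.38). Its lesions nonetheless ran from 7.31 CPM (KO1-5) to 30.9 CPM (NK1-1). Slc16a3, the lactate exporter MCT4, had 9.66 ± 5.18 and 11.0 ± 5.75 CPM (log2 -0.19 ± 0.66). NK1-3 stood highest at 42.5 CPM, followed by the controls KO2-3 at 23.8 and KO3-2 at 21.5 CPM, against 2.64 to 12.1 CPM in the rest. NK1-3 also had the highest airway and mammary epithelium sums of all lesions (24848 and 1036 CPM), and their part in its Slc16a3 was not tested.

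Among the regulators, Pfkfb4 had the highest peak, at 8.42 times its median over lesions. It encodes a bifunctional enzyme that makes or breaks fructose 2,6-bisphosphate, the activator of phosphofructokinase (chromosome 9, 108991778 to 109032228, plus strand). Its level was 6.46, 39.3 and 34.5 CPM in the lesions of NK1 and 7.93, 9.61, 14.8 and 3.43 CPM in those of NK2. Control lesions ran from 5.84 (KO1-1) through a median of 22.2 to 137 CPM (KO3-2), with KO1-5 next at 57.6 CPM. The groups overlapped, with 6 of 7 lesions with NK cells inside the control range and 2 of 11 control lesions above every lesion with NK cells. Over mice Pfkfb4 had 13.4 ± 6.08 CPM against 35.5 ± 31.9 CPM, a log2 fold change of -1.41 ± 0.76 (unadjusted p = 0.102 in edgeR). The value was -0.36 without mouse KO3, -0.58 without NK1-1, -0.75 without KO3-2, and -2.16 without KO3-1, which leaves KO3-2 as the only lesion of its mouse. It was negative in all 23 of these fits.

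Pfkfb3, the sister enzyme that favours synthesis, had 18.6 ± 3.73 and 21.5 ± 11.8 CPM (log2 -0.21 ± 0.54) and was likewise highest in KO3-2, at 52.4 CPM. Per kilobase Pfkfb4 was above Pfkfb3 in 13 of 18 lesions, 3 of 7 with NK cells and 10 of 11 controls. Pdk1, a kinase that inhibits pyruvate dehydrogenase in the mitochondrion, had 20.5 ± 11.7 and 12.6 ± 5.87 CPM (0.70 ± 0.56). Its lesions spanned 0.406 CPM (NK1-2, only 1 count) to 49.7 CPM (NK1-3, 69 counts) within a single mouse. Its SD of log2 CPM within mice was 1.73, against a median of 0.61 for the 20 glycolysis genes, and without mouse NK1 its fold change was -0.03.

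The matrix and acid-base genes had their extremes in a few lesions. P4ha1 and P4ha2 encode catalytic subunits of the collagen prolyl hydroxylase. P4ha1 averaged 131 ± 1.47 CPM with NK cells, against 155 ± 75.5 CPM without (log2 -0.25 ± 0.47), and its maximum, 388 CPM in KO3-2, was 3.31 times the median of all lesions. P4ha2 had 16.3 ± 10.4 and 20.9 ± 21.4 CPM (-0.36 ± 0.85). Its 2 highest lesions came from different groups, NK1-3 at 92.8 CPM and KO3-2 at 80.7 CPM, and the next, KO3-1, had 24.0 CPM. The sign of P4ha2 depended on them, since the log2 fold change was 0.92 without mouse KO3 and -1.21 without mouse NK1. Car9, the carbonic anhydrase often used to stain hypoxic tumour, was nearly absent at 0 to 2.56 CPM, with 61 counts with NK cells (72.1% of them in NK2-4) and 41 in controls. A gene that overlaps Car9 on the other strand, Gm12454, had 144 counts.

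The nuclear and remaining targets showed no difference beyond their errors. Mxi1, an antagonist of MYC, had 37.7 ± 16.2 CPM (SD, n = 2 mice) and 43.6 ± 3.89 CPM (n = 3), a log2 fold change of -0.21 ± 0.41. Mxi1 was low in 3 lesions, drawn from both groups, NK1-3 at 2.16, KO3-2 at 5.66 and KO1-5 at 5.94 CPM, and 19.9 to 67.5 CPM elsewhere. Kdm3a, a histone demethylase, had 20.05 ± 6.503 and 16.1 ± 2.10 CPM (0.32 ± 0.42). Ankrd37, an ankyrin-repeat protein, had 3.43 ± 2.28 and 3.10 ± 2.15 CPM (0.15 ± 0.87).

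Lesions of the same mouse differed widely. The SD of log2 CPM within mice had a median of 0.61 over the 20 glycolysis genes, 0.90 over the 13 other HIF genes and 0.93 over all tested genes. It was smallest for Gpi1 (0.27) and largest for Ndrg1 (1.88, with NK1-3 at 0). The share of the sum of squares of log2 CPM that lay between mice had a median of 38.6% for glycolysis genes. It was 25.2% for other HIF genes and 32.4% for all genes. This share is above 0 even where mice do not differ, so it is not a variance between mice. Eno1, Pfkfb3 and Gapdh had the most, at 72.6%, 65.0% and 63.4%, and Pfkl the least at 2.54%.

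Levels were set beside the share of mt-Rnr2, which separates the 6 lesions above 40% from the 12 below. Eno1 was lower in all 6 than in any of the 12 (26.6 to 144 against 146 to 389 CPM). Gapdh was lower in 5 of the 6 (KO3-2 at 600 CPM was the exception), and so was Ldha (the exception was NK1-1 at 409 CPM). Mxi1 was lower in 5 as well. In the other direction Pfkfb4 was above all 12 in 4 of the 6, with 6.46 CPM in NK1-1 and 25.8 CPM in KO1-2 as the exceptions. These genes were named out of the 33 members for their separation. The share of all genes separated to this degree was not computed, so no particular link of these members to mt-Rnr2 is shown. The median was lower above 40% for 20 of 33 members (12 of 20 glycolysis genes and 8 of 13 others) and for 58.1% of all genes. The lesions above 40% include all of NK1 and 3 of 11 controls, so this share moves with mouse NK1, and its part in the fold changes was not tested. With those 6 lesions left out the glycolysis median was 0.08 and that of the other HIF genes 0.04, from NK2 alone against the controls.

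**Figure D5:**
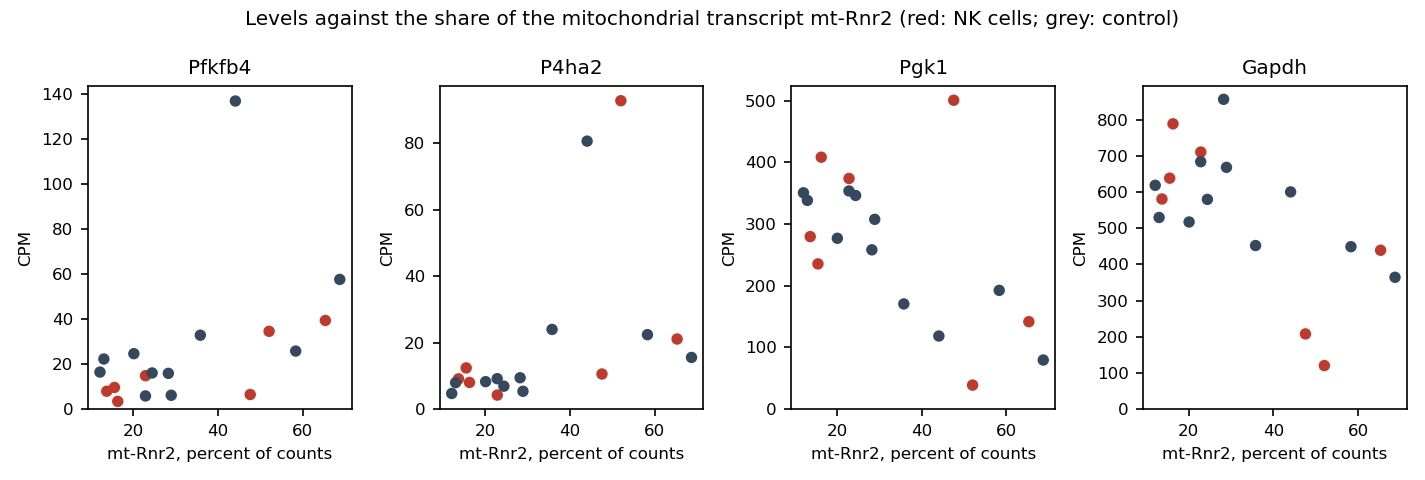
CPM of Pfkfb4, P4ha2, Pgk1 and Gapdh (linear axes) against the percent of a lesion's counts taken by mt-Rnr2, a point per lesion (red, NK transferred; grey, Ctrl). Above 40%, 4 of 6 lesions exceed the 12 others for Pfkfb4, P4ha2 has its values of 92.8 and 80.7 CPM, 5 of 6 lie below the 12 others for Gapdh, and Pgk1 spans 38.9 to 501 CPM. The share of all genes with such separations was not computed.

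The highest and lowest values of the members were also counted by lesion. NK1-3 was the lowest of 18 lesions for 13 members, among them Tpi1 (191 CPM), Gapdh (120 CPM), Pgk1 (38.9 CPM) and Eno1 (26.6 CPM), and the highest for 5, including P4ha2, Slc16a3, Pdk1 and Aldoc. KO3-2 was highest for 5, including Pfkfb4, Pfkfb3, Pfkp (72.2 CPM) and P4ha1. KO1-5 was lowest for 6, including Ldha (127 CPM), Aldoa (28.3 CPM), Hk2 (4.57 CPM) and Slc2a1, while Hk1 had its highest value there (48.4 CPM). NK2-4, the deepest library, was highest for 7 members, including Ldha (736 CPM), Eno1 (389 CPM), Aldoa (145 CPM) and Ndrg1. Of the members 15.15% were highest in NK1-3 and 15.15% in KO3-2, against 15.51% and 13.52% of all genes, so these counts were near the background. In NK2-4 it was 21.21% of the members against 4.037% of all genes, and in KO1-5 3.030% against 9.387%. The share of all genes lowest in a lesion was not computed, so the counts of lowest values have no background.

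Other genes of these pathways were tested in the same fit. Of 27 further genes of glucose use, 20 were tested, 11 had a fold change above 0, the median was 0.03, and 0 passed edgeR's adjusted test, nor was any under 0.05 without adjustment. Those with the smallest p were Slc2a3, the glucose carrier GLUT3 (-1.28 ± 0.62), Slc2a4, the insulin-regulated carrier GLUT4 (3.19 ± 1.61, at 7.52 CPM in NK1 and at most 0.557 CPM in the other mice, with the cardiac muscle and adipocyte sums of NK1-1, whose part was not tested), and the myeloid hexokinase Hk3 (-2.06 ± 1.09). Slc2a3 had 102 and 61.6 CPM in KO2 and KO3, against 22.1 CPM in KO1 and 22.7 and 28.03 CPM in the mice with NK cells. The summed neutrophil markers were also highest in KO2 and KO3, at 1824 and 2767 CPM against 238 to 555 CPM in the other mice, and their part was not tested. The muscle isozymes Pfkm (0.03 ± 0.62) and Eno3 (-0.62 ± 0.54) and the heart-type lactate dehydrogenase subunit Ldhb (-0.06 ± 1.10) did not pass.

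Of 8 further genes of the HIF machinery 6 were tested, with 2 above 0 and none past edgeR's test with or without adjustment. Epas1, which encodes HIF-2α, had -0.25 ± 0.49, the partner subunit Arnt 0.33 ± 0.43 and Vhl 0.33 ± 0.36. Of 29 further known targets 28 were tested, 16 of them above 0, with a median of 0.32. Over all tested genes the median was -0.03, with 48.3% above 0. The median of this list was not computed without NK1-1 or any other lesion or mouse. It comes from the same 5 mice as the members' values and is not independent of them. Plod2, a collagen lysyl hydroxylase, had 97.3 and 50.7 CPM in NK1 and NK2 and 28.5, 44.0 and 22.4 CPM in the controls. Its log2 fold change was 1.22 ± 0.46 (unadjusted p = 0.0282 in edgeR), and it was the only target of this list under 0.05 without adjustment. The fibroblast sums given above were also higher in both mice with NK cells, and their part in Plod2 was not tested. Wsb1, a ubiquitin ligase subunit, had 0.72 ± 0.38 and the lipid droplet protein Plin2 0.71 ± 0.45, while Vegfa, the angiogenic factor, had -0.34 ± 0.40.

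Some members share sequence with other genes, so that reads could be split between them. Gapdh had 175 similar genes with counts, which held 9.38% of the counts of both together, and Bnip3l had the pseudogene Bnip3l-ps with 2096 counts (10.4%). Pgk1 had Pgk1-rs7 with 1153 counts, and Eno1 had Gm4735 with 447 counts against its own 38880. Adding the counts of a further near-identical copy, Eno1b, to Eno1 left the fold change at -0.19. Pfkp shares 748 identical bases with Pitrm1 on the other strand, which had 7081 counts, and Ankrd37 overlaps Ufsp2 (2854 counts), so these members are uncertain. Hif1a, Pfkfb4, Hk1, Hk2, Slc2a1 and Egln1 had no similar gene with counts.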

How the data were processed

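RNA was measured in 18 lesions by RNA-seq of laser-captured tissue. The submitters' processing notes name bcl2fastq 2.17, STAR, RSEM (version 1.2.28), DESeq2 and build mm10; of the annotation and the strand handling nothing is given in the sources used here. The authors deposited expected counts (the estimated counts of RSEM, not scaled) and a table of normalized values that look like log2 values by their range; the authors' transformation behind these log2 values is not stated, and that table served as an alternative only. There were 0 columns of other samples. The deposited annotation table was not used.

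Expected counts were rounded (6.9% of values were not whole). Of 49585 identifiers 49326 matched a symbol and 26158 had a count. Lesions were summed within each mouse. The labels do not say that mice were handled in separate experiments, so p-values measure the spread between these mice. edgeR 4.0.16 (filterByExpr with minimum count 10 and minimum total 15, TMM scaling, robust quasi-likelihood F test, Benjamini-Hochberg adjustment, threshold 0.05) was run in R 4.3.3 on all 16917 genes kept, and the procedure was tested on simulated data. Standard errors were the log2 fold change over the root of F. Values by lesion are CPM on TMM-scaled libraries, and mean ± SD is over mice. Levels between genes were compared per kilobase of merged exons (GENCODE M21). The order of genes therefore depends on these lengths, which can exceed the length of a single transcript. Where a limit is given for a lesion with 0 counts, it is 3 counts, which covers counting error only. Similar genes were found with blastn (at least 90% identity over at least 200 bases).

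The members, lists and tests were chosen with earlier results of these data known. All 33 members are named. From each further list the 3 tested genes with the smallest p are named, with Epas1, Arnt, Vhl, Vegfa, Slc2a3, Ldhb, Pfkm and Eno3. Other choices made after values were seen are marked. Alternatives covered scaling, filters, DESeq2 1.42.0, limma 3.58.1 (prior count 2), weights of lesions, the mitochondrial transcripts, the deposited log2 table, a replicate block and leaving out each mouse and lesion. Total counts of 2964242 to 11798897 per lesion set the precision.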

Additional observations from a re-analysis of the deposited data

Results flagged for a closer look

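In the 7 lesions with NK cells, a lesion stands apart where its gap to the nearest lesion exceeds 0.568 of the group's range. Each of the 33 members was examined, and 8 (24.2%) had such a lesion, against 29.0% of all 16917 genes tested by the same rule, so the members' share was not above the background. The nominal rate of the rule, about 1 in 20, does not describe these CPM values. The lesions are not independent, and the 11 control lesions are too many for this rule.

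NK1-1 had 79.75 CPM of Bnip3 where the next lesion had 8.113 CPM. It had 323.6 CPM of Bnip3l, with 105.6 CPM next, and 48.86 CPM of Higd1a, with 19.87 CPM next. It was lowest for the hexokinase Hk1, at 2.206 CPM, with 13.39 CPM next. The lesion held the highest cardiac muscle, adipocyte and fibroblast sums of all 18 lesions, and its mt-Rnr2 share was 47.6%.

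NK1-3, the shallowest library, had 92.82 CPM of P4ha2 with 21.09 CPM next, 42.45 CPM of the lactate exporter Slc16a3 with 10.4 CPM next, and 11.51 CPM of Aldoc, a total of 16 counts, with 2.994 CPM next.

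NK2-4 had 2.557 CPM of Car9 with 0.8113 CPM next, or 44 counts of the 61 in the group.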

How the results depend on the processing

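Of 33 alternatives, 23 left out a mouse or a lesion; a fit without a mouse with NK cells assumes that the lone mouse varies like the others. The count of genes past the threshold, 0, became 39 with DESeq2, 224 without the filter on low counts and 7 with the replicate block, and ranged from 0 to 4 (without mouse NK2) over the leave-out fits. The count of members stayed at 0 except for 1 (Bnip3, 2.15) without the filter. The glycolysis median of -0.05 ranged from -0.43 (without NK2) to 0.068 (without NK1) and was 0.080 without the lesions over 40% mt-Rnr2. The median of the other HIF genes, 0.32, ranged from -0.12 (without NK1-1) to 0.69 (without KO3), and was 0.70 with the replicate block and 0.037 without the lesions over 40% mt-Rnr2. The titles number mice in both groups, and the deviations of same-numbered mice from their group means correlated at 0.0957 (NK1 and KO1) and 0.289 (NK2 and KO2). With 2 mice with NK cells, their deviations are exact opposites, so this check cannot decide whether the numbers are pairs. The labels do not name pairs, and the main fit used none. Requiring 10 counts in 9 lesions left out 3 members (Aldoc, Eno2 and Car9), which have no value there.

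Of 1087 comparisons of a member's fold change with an alternative, 960 kept its sign and its side of the threshold, 126 changed sign and 1 passed the threshold. Ndrg1, Hif1a, Eno2 and Pfkfb4 kept their sign in every alternative run, and the other 29 did not. Without the 6 lesions over 40% mt-Rnr2, which leaves NK2 alone against the controls, the sign turned for Hk1 (0.049), Pfkp (0.060), Aldoc (-0.79), Gapdh (0.23), Pgam1 (0.17), Eno1 (0.51), Pkm (0.099), Slc2a1 (-0.069), Pdk1 (-0.18), Egln3 (0.037), Bnip3 (-0.87), Bnip3l (-0.19), P4ha1 (0.093) and Ankrd37 (-0.97). With the replicate block, the sign turned for Pfkl (-0.019), Aldoa (-0.014), Ldha (-0.23), Slc2a1 (-0.054), Slc16a3 (0.22), Pfkfb3 (0.33), P4ha1 (0.23) and P4ha2 (0.78). With equal weight of lesions, the sign turned for Pgk1 (-0.024), Slc2a1 (-0.16), Egln1 (0.11), Egln3 (0.11), Bnip3l (-0.15) and Ankrd37 (-0.015). Without the filter on low counts, the sign turned for Slc2a1 (-0.0018). With lesions fitted by limma and the mouse as a random block (consensus correlation 0.206), the sign turned for Slc2a1 (-0.050), Pfkfb3 (0.0048), Egln3 (0.23), Bnip3l (-0.018) and Mxi1 (0.0066). Without the transcripts of the mitochondrial genome, the sign turned for Slc2a1 (-0.00047). In the deposited log2 table, the sign turned for Slc2a1 (-0.10), Slc16a3 (0.011), Egln1 (0.093), Egln3 (0.22), Bnip3l (-0.093) and P4ha2 (0.0029).

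Over the leave-out fits, the log2 fold change ran for Hk2 from -0.48 to 0.53, for Gpi1 from -0.66 to 0.043, for Pfkl from -0.16 to 0.29, for Aldoa from -0.41 to 0.52, for Aldoc from -0.83 to 1.40, for Tpi1 from -0.52 to 0.33, for Gapdh from -1.32 to 0.25, for Pgk1 from -0.23 to 0.60, for Pgam1 from -0.45 to 0.26, for Eno1 from -1.94 to 0.58, for Pkm from -0.86 to 0.093, for Ldha from -0.48 to 0.43, for Slc2a1 from -0.43 to 0.12, for Slc16a3 from -0.87 to 0.28, for Pfkfb3 from -0.62 to 0.30, for Pdk1 from -0.028 to 1.19, for Egln1 from -0.53 to 0.11, for Egln3 from -0.45 to 0.63, for Bnip3 from -0.54 to 3.09, for Bnip3l from -0.54 to 0.94, for Higd1a from -0.045 to 1.21, for P4ha1 from -0.72 to 0.18, for P4ha2 from -1.21 to 0.92, for Car9 from -0.013 to 1.46, for Mxi1 from -0.73 to 0.22, for Kdm3a from -0.13 to 0.64 and for Ankrd37 from -0.75 to 0.87. Depth limits Car9, Aldoc, Eno2 and Ankrd37 most, with 102 to 372 counts in all lesions together.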
